A study of Mus musculus with 10 samples.

Results

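Chil1 and Etnppl are astrocyte genes that were selected on their lower level in cortex with astrocyte-specific deletion of Bmal1, and they make up 2 of the 12575 genes in the table, found by gene symbol. Cortical RNA was sequenced from 5 BMAL1 aKO mice (Aldh1l1-CreERT2;Bmal1 fl/fl) and 5 Cre- littermates (Cre-;Bmal1 fl/fl). All carried the floxed Bmal1 alleles, were of C57BL/6 background, received tamoxifen and were 4 months old by the labels, whereas the study's text gives another age. Cre under the Aldh1l1 promoter acts in astrocytes, so that neurons and other cells of BMAL1 aKO cortex keep an intact Bmal1 gene. The study also counted fewer BMAL1 aKO mice than the labels list, and its text does not say which library was left out, so all libraries were used here. The time of day at which the cortex was collected is not given in the labels.

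BMAL1 and CLOCK form a transcription factor that binds E-box elements and drives the Period and Cryptochrome genes, whose proteins then repress it, as well as Nr1d1, Nr1d2 and the PAR bZIP factors Dbp, Tef and Hlf. The PAR bZIP proteins bind D-box elements and pass the rhythm on to further genes. Chil1 encodes chitinase-like protein 1, a secreted glycoprotein known as YKL-40 in humans that binds chitin without cleaving it, and the study treats it as a clock-controlled gene under the name Chi3l1. In the human brain YKL-40 is made mainly by astrocytes and is measured in cerebrospinal fluid as a marker of glial inflammation. Etnppl encodes ethanolamine-phosphate phospho-lyase, an enzyme that uses pyridoxal phosphate to break phosphoethanolamine, an intermediate of membrane lipid synthesis, into ammonia, phosphate and acetaldehyde. In the brain its transcript is found mainly in astrocytes.

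Chil1 (ENSMUSG00000064246) lies on the plus strand of chromosome 1 at 134182176 to 134190181 (GRCm38, GENCODE M21), with Chit1 on its left and Mybph 3266 bases to its right. Etnppl (ENSMUSG00000019232) lies on the plus strand of chromosome 3 at 130617448 to 130637521, between Col25a1 and Ostc. Neither gene overlaps another annotated gene. The 250 bases upstream of the first RefSeq start of each gene (GRCm38.p6) are shown. They were searched because BMAL1 acts through E-boxes and its target factors through D-boxes. Capitals mark matches to the D-box TTATGTAA and to the general E-box CANNTG, searched on both strands.
Chil1 chr1:134181906-134182155 (+): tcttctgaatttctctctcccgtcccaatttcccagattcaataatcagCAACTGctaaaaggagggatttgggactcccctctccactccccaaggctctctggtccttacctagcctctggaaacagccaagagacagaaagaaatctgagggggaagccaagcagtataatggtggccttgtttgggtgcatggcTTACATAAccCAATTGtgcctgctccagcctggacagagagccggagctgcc
Etnppl chr3:130617198-130617447 (+): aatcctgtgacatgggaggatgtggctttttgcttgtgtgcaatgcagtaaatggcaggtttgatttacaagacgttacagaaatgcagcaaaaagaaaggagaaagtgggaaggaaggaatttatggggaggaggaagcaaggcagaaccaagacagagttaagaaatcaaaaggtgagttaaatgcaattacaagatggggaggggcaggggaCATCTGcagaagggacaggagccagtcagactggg

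In the Chil1 window the D-box was found as its reverse complement TTACATAA at positions -52 to -45 from the start, a match held by 0.819% of the 32851 mouse promoter windows searched. Of the 12 clock output genes with a window in the table, 1 (Per3) held the same D-box. CANNTG matched in Chil1 as CAACTG from -201 and as CAATTG from -42, and in Etnppl as CATCTG from -35. This loose motif is present in 66.2% of all windows. The canonical E-box CACGTG occurs in 6.02% of windows, 5 of the 12 clock output genes among them, and the variant CACGTT in 3.85%, and neither has its letters in these windows of Chil1 or Etnppl. The ROR half-site AGGTCA, held by 14% of windows, was likewise not matched. Nor were the D-box variants TTATGCAA (0.694% of windows) and TTACGTAA (0.113%). Motifs of other factors were searched as well. The Chil1 window held an NF-kappaB match at -179 to -170, not marked by capitals, a motif present in 2.7% of windows. The STAT (7.02% of windows) and C/EBP (1.93%) motifs were not matched. Each rate is for a single motif and takes no account of the number searched. A second RefSeq start of Etnppl, further downstream, added 1 CANNTG match, CAGGTG. These matches describe letters and were not tested as binding sites.

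Chil1 was at 2.94, 3.95, 7.77, 3.55 and 4.98 CPM (reads of the gene scaled to a common library size) across BMAL1 aKO replicates 1 to 5, against 6.90, 6.96, 8.96, 5.10 and 7.45 CPM in Cre- replicates 1 to 5. BMAL1 aKO replicate 3 stood among the Cre- libraries, and the other 4 BMAL1 aKO libraries lay below every Cre- library. The means were 4.64 ± 1.90 CPM in BMAL1 aKO and 7.07 ± 1.38 CPM in Cre- cortex (SD, n = 5 each), so that BMAL1 aKO cortex held 65.6% of the Cre- level. On the log2(CPM + 0.5) scale the difference of the means was -0.61, with an SD of 0.395 between libraries of a group, and it was -0.80 without BMAL1 aKO replicate 3. Chil1 had the 32nd lowest difference of the 12573 genes that passed the filter of more than 1 CPM in at least 4 libraries. This contrast chose the gene and is given as a description, with no test.

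Etnppl was at 6.23, 9.28, 16.6, 4.37 and 10.2 CPM across BMAL1 aKO replicates 1 to 5, against 21.3, 12.2, 18.7, 30.0 and 22.8 CPM in Cre- replicates 1 to 5. Here too the groups overlapped through BMAL1 aKO replicate 3 alone, which exceeded Cre- replicate 2 and no other Cre- library. The means were 9.33 ± 4.67 CPM in BMAL1 aKO and 21.0 ± 6.46 CPM in Cre- cortex (SD, n = 5 each), or 44.4% of the Cre- level. The log2 difference was -1.20, with an SD of 0.586 between libraries of a group, and -1.43 without BMAL1 aKO replicate 3. It was the second lowest difference of the 12573 genes. Without that replicate both genes had every BMAL1 aKO library below every Cre- library, as did 166 of the 12573 genes (1.32%), and nothing is read from this since the contrast chose them.

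**Figure D1:**
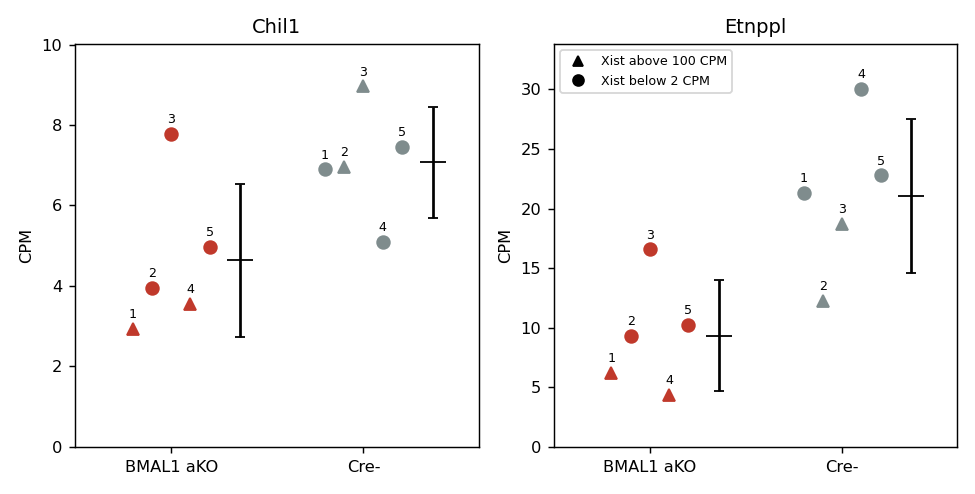
CPM of Chil1 and Etnppl in each BMAL1 aKO (red, left) and Cre- (grey, right) library, numbered by replicate, with black bars for the mean and SD of 5 libraries. Triangles are libraries with Xist above 100 CPM. BMAL1 aKO replicate 3, at 7.77 CPM for Chil1 and 16.6 CPM for Etnppl, is the library that reaches into the Cre- range.

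Per kilobase of exon, the level of Chil1 was 1.65 CPM in BMAL1 aKO and 2.52 CPM in Cre- cortex, and that of Etnppl was 1.13 CPM in BMAL1 aKO and 2.54 CPM in Cre- cortex. On this scale Chil1 stood above Etnppl in every BMAL1 aKO library, while their order varied between the Cre- libraries. The ratio of Etnppl to Chil1 CPM was 1.98 ± 0.431 in BMAL1 aKO and 3.18 ± 1.62 in Cre- libraries (SD, n = 5 each), and it was highest in Cre- replicate 4 (5.88), the library with the lowest Chil1 and the highest Etnppl of its group. With the step of values in each library taken as 1 read, which the table cannot show directly because genes near 0 CPM were filtered out, the values corresponded to 82 to 288 reads of Chil1 per library in BMAL1 aKO and 152 to 379 in Cre- cortex, and to 101 to 614 reads of Etnppl in BMAL1 aKO and 267 to 1100 in Cre- cortex. On that reading the counting error per library was at most 11% for Chil1 and 9.95% for Etnppl, smaller than the spread between libraries.

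By the same reading libraries held 23127338 to 47964460 reads in BMAL1 aKO and 21844770 to 48295715 in Cre- cortex, and mitochondrial transcripts took 14.5 to 18% of reads in BMAL1 aKO and 6.19 to 19.9% in Cre- libraries. The lowest mitochondrial share and the lowest quality weight (0.181) were both in Cre- replicate 3, which had the highest Chil1. The highest weight was 7.19 for Cre- replicate 1, where no other Cre- library had more than 1.52. The weighted fits therefore rest largely on that library for the Cre- level. Arntl, the gene symbol of Bmal1, averaged 34.5 ± 2.93 CPM in BMAL1 aKO and 34.2 ± 2.25 CPM in Cre- cortex (SD, n = 5 each), with a fitted log2 fold change (log2FC, here and below with its standard error, SE, where given) of 0.01 (limma, adjusted p = 0.932). Whole cortex holds many cells that keep the gene, so this value does not check the labels. All 20 genes of an astrocyte marker list were measured. Over all genes, 42 of 12573 (0.334%) passed an adjusted p of 0.1 in limma, 6 of them lower in BMAL1 aKO (0.0477%). Without BMAL1 aKO replicate 3 these counts were 844 (6.71%) and 505 lower (4.02%), without Cre- replicate 1 only 1 gene passed, and without sample weights 4 did.

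Both groups held libraries with high and with low Xist, the transcript of the inactive X chromosome. Xist was at 986 to 1089 CPM for BMAL1 aKO replicates 1 and 4 and Cre- replicates 2 and 3, and at no more than 1.42 CPM in the other libraries. In each group the 2 libraries with high Xist were the 2 lowest for Etnppl. Among high-Xist libraries Etnppl was at 4.37 and 6.23 CPM in BMAL1 aKO, against 12.2 and 18.7 CPM in Cre- cortex, and among the others it was at 9.28 to 16.6 CPM in BMAL1 aKO, against 21.3 to 30.0 CPM in Cre- cortex. The BMAL1 aKO range thus lay below the Cre- range within both classes, with log2 differences of -1.45 and -1.04. This held for 168 of the 12573 genes (1.34%), and nothing is read from it, since the same contrast chose Etnppl. The overlap seen over all 10 libraries was between BMAL1 aKO replicate 3 with low Xist and Cre- replicate 2 with high Xist.

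For Chil1 the groups did not overlap among the high-Xist libraries, 2 against 2, and overlapped among the others. Nothing is read from that separation, since the contrast chose Chil1 and the share of all genes that separate so was not counted. Among high-Xist libraries Chil1 was at 2.94 and 3.55 CPM in BMAL1 aKO, against 6.96 and 8.96 CPM in Cre- cortex, a log2 difference of -1.17. Among the others it was at 3.95 to 7.77 CPM in BMAL1 aKO, against 5.10 to 7.45 CPM in Cre- cortex, where the ranges overlapped and the difference was -0.24. With the log2 level of Xist as a covariate the difference in the weighted fit was -0.25 for Chil1 and -0.80 for Etnppl. The weighted fit without Xist gave -0.48 for Chil1 and -1.19 for Etnppl, so the plain differences are not its base. The split by Xist was made after the values were seen, and whether the difference between the groups depends on the class was not tested.

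In bulk tissue, fewer cells of a type and less RNA per cell cannot be told apart, so both genes were set against other genes of the same cell type. The summed level of the 20 astrocyte genes, which include the glutamate transporters Slc1a2 and Slc1a3 and the water channel Aqp4, was 9181 to 11067 CPM in BMAL1 aKO and 8324 to 9850 CPM in Cre- libraries. Of the 20, 3 rose and 0 fell in limma at an adjusted p of 0.1, beside 0.334% of all genes. The gap junction gene Gja1 rose by 0.44 ± 0.07 in log2 units (SE, limma, adjusted p = 0.0273), the neurotensin receptor Ntsr2 by 0.47 ± 0.07 (SE, limma, adjusted p = 0.0210) and the claudin Cldn10 by 0.65 ± 0.12 (SE, limma, adjusted p = 0.0590). At an unadjusted p under 0.05, 5 were higher and 0 lower, beside 16.8% of all genes in either direction and 10.0% in the lower. The plain difference of mean log2 was below 0 for 8 of the 20, beside 63.0% of all genes. Of the 19 settings of the fit, the one given included, Gja1 passed in 12, Ntsr2 in 15 and Cldn10 in 10. None of the 3 passed without sample weights, with a replicate block, or without Cre- replicate 1 or 5, where adjusted p in limma ran up to 0.894 for Cldn10.

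As a share of the summed astrocyte CPM, Chil1 was 0.0470% ± 0.0201 in BMAL1 aKO and 0.0785% ± 0.0195 in Cre- cortex (SD, n = 5 each), or 60.0% of the Cre- share. Etnppl was 0.0945% ± 0.0483 in BMAL1 aKO and 0.229% ± 0.0603 in Cre- cortex, or 41.3%. The log2 differences of these shares were -0.79 for Chil1 and -1.38 for Etnppl. The sum leans on Slc1a2, which averaged 5259 ± 373 CPM in BMAL1 aKO and 4541 ± 581 CPM in Cre- cortex (SD, n = 5 each) and did not pass the test (limma, adjusted p = 0.298). BMAL1 aKO replicate 3 was again the highest of its group, at 0.0791% for Chil1 and 0.169% for Etnppl. Taken instead as the median percent of each single astrocyte gene, Chil1 was 5.21% in BMAL1 aKO and 7.89% in Cre- cortex, or 66.0% of the Cre- value, and Etnppl was 10.6% in BMAL1 aKO and 23.5% in Cre- cortex, or 45.0%, close to the 65.6% and 44.4% of the plain levels. The level of microglial and macrophage genes, another possible source of a chitinase-like transcript, summed to 187 to 256 CPM in BMAL1 aKO and 187 to 282 CPM in Cre- libraries, with 9 of 9 listed genes measured. None of the 9 was called, beside 0.334% of all genes. At an unadjusted p under 0.05, 2 were higher and 0 lower, beside 16.8% of all genes, and without BMAL1 aKO replicate 3, 1 was called higher, beside 6.71%. Meningeal and choroid plexus genes summed to 531 to 1784 CPM in BMAL1 aKO and 556 to 1606 CPM in Cre- libraries. Striatal genes, a sign of the tissue dissected, summed to 439 to 855 CPM in BMAL1 aKO and 356 to 1629 CPM in Cre- libraries. The highest sum was that of Cre- replicate 3, where the striatal gene Adora2a was at 107 CPM, against at most 28.9 CPM in any other library. The part of these cells and tissues in the levels of Chil1 and Etnppl was not tested.

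**Figure D2:**
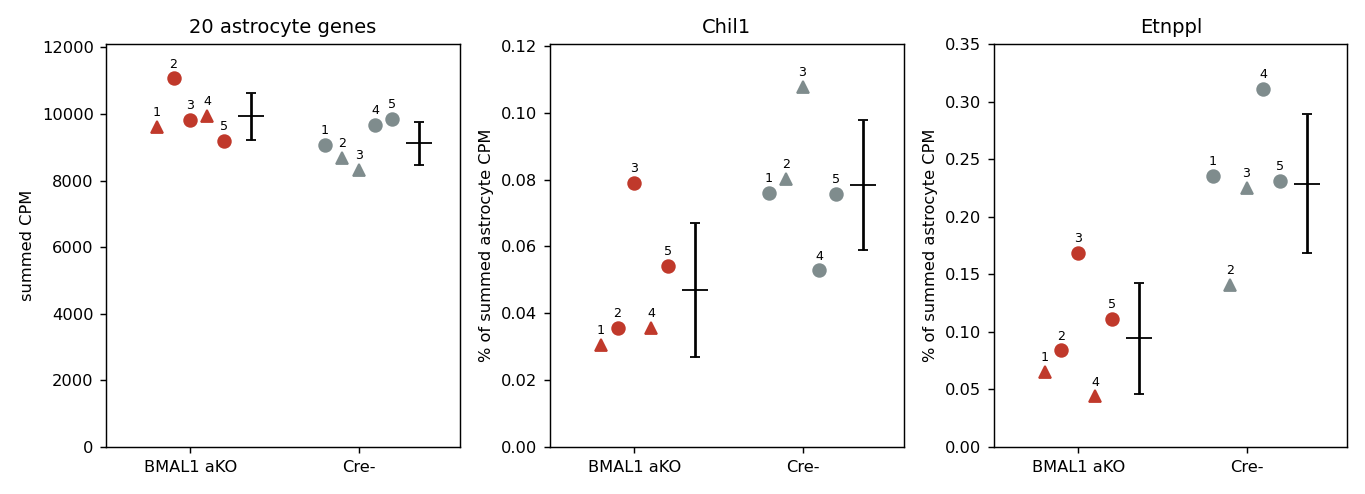
Summed CPM of 20 astrocyte genes (left) and Chil1 and Etnppl as a percent of that sum (middle and right) in each BMAL1 aKO (red) and Cre- (grey) library, numbered by replicate, with black bars for the mean and SD of 5 libraries and triangles for libraries with Xist above 100 CPM. The sum lies between 8324 and 11067 CPM in every library, while the Etnppl share averages 0.0945% in BMAL1 aKO and 0.229% in Cre- cortex.

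The rule also asked how the pair stands against the output of the clock. The 15 clock output genes were all measured. None passed an adjusted p of 0.1 in limma, beside 0.334% of all genes, and 5 were lower and 0 higher at an unadjusted p under 0.05, a level that 10.0% of all genes met in the lower direction and 16.8% in either. These 5 were Dbp, Tef, Nr1d1, Nr1d2 and Per3. The number was also 5 without sample weights, 3 with quantile normalization, 2 with Xist as a covariate, 8 with a replicate block, and 3 without BMAL1 aKO replicate 4 or 5. All 15 had a difference of mean log2 below 0, as 63.0% of all genes did, with a median of -0.30 against -0.05 over all genes. The number below 0 was 14 under TMM, median-of-ratios and quantile scaling and without Cre- replicate 2 or 4.

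Dbp, a PAR bZIP factor and a direct target of BMAL1, was at 21.7, 15.5, 13.7, 10.3 and 9.03 CPM across BMAL1 aKO replicates 1 to 5, against 18.2, 14.5, 32.8, 19.3 and 19.5 CPM in Cre- replicates 1 to 5. Its groups overlapped through BMAL1 aKO replicate 1 and Cre- replicate 2, and the log2FC was -0.53 ± 0.16 (SE, limma, adjusted p = 0.182). Nr1d1, which encodes the repressor REV-ERBalpha, was at 92.1, 89.0, 92.3, 70.7 and 72.7 CPM in BMAL1 aKO, against 102, 94.8, 145, 129 and 106 CPM in Cre- cortex. Every BMAL1 aKO library was below every Cre- library for Nr1d1, whose log2FC was -0.35 ± 0.09 (SE, limma, adjusted p = 0.154). How many of all genes separate in this way over all 10 libraries was not counted, so nothing is read from the separation. Per3, a Period gene, was at 38.8, 48.8, 56.4, 42.5 and 38.7 CPM in BMAL1 aKO, against 53.6, 46.1, 77.4, 81.8 and 68.9 CPM in Cre- cortex. Its groups overlapped through BMAL1 aKO replicate 3 and Cre- replicate 2, and its log2FC was -0.32 ± 0.13 (SE, limma, adjusted p = 0.246).

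Without BMAL1 aKO replicate 3, 3 of the 15 fell, beside 4.02% of all genes, whereas 0 of the 15 passed in each of the 18 other alternatives. That replicate was singled out for its levels of Chil1 and Etnppl. Nr1d1 fell by 0.45 (adjusted p = 0.0491), Per3 by 0.45 (adjusted p = 0.0779) and Dbp by 0.64 on the log2 scale (adjusted p = 0.0815, limma). In that replicate Dbp was at the median of its group. Nr1d1 was the highest of its group there, though close to BMAL1 aKO replicate 1, and Per3 was also the highest, at 56.4 CPM against 48.8 CPM in BMAL1 aKO replicate 2. Tef, another PAR bZIP factor, and Nr1d2, which encodes REV-ERBbeta, had adjusted p-values of 0.151 and 0.187 there in limma, and 0.250 and 0.251 over all 10 libraries. Of the 7 listed genes of the positive arm of the clock and its modulators, 6 were measured (Arntl, Clock, Npas2, Rora, Rorb and Nfil3), and 0 passed the test with or without that replicate, with 0 at an unadjusted p under 0.05 over all 10 libraries. The log2 differences of Chil1 (-0.61) and Etnppl (-1.20) were thus further from 0 than the median of the clock output list, and no test compares them, since the values chose the pair.

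**Figure D3:**
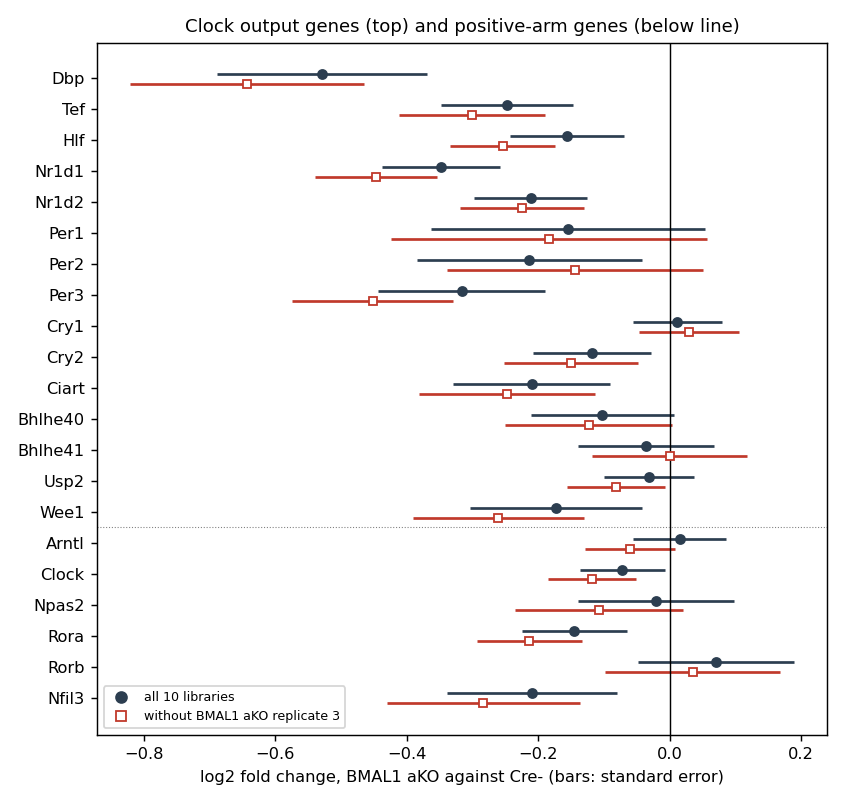
Log2 fold change of BMAL1 aKO against Cre- cortex for 15 clock output genes (above the dotted line) and 6 genes of the positive arm and its modulators (below it), with bars for the standard error, from limma over all 10 libraries (filled circles) and without BMAL1 aKO replicate 3 (open squares). Dbp is at -0.53 with all libraries and -0.64 without that replicate, and Cry1, Arntl and Rorb lie at or above 0 with all libraries.

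Whether Chil1 and Etnppl followed the clock genes from animal to animal was asked with each library's deviation from its group mean, which the choice of the genes did not use. Pearson's r and Spearman's rho were computed for 30 relations, each gene with 15 clock output genes over 10 libraries, with exact two-sided permutation within groups and adjustment over the 30. None passed an adjusted p of 0.1. For Chil1, r ran from -0.37 with Per2 to 0.30 with Per3, and no relation had an unadjusted p under 0.05. For Etnppl, the relation with the smallest p was that with Usp2, a deubiquitinating enzyme under clock control, with r = 0.74 (exact permutation p = 0.00472, adjusted p = 0.142) and rho = 0.67 (exact permutation p = 0.0392, adjusted p = 0.706). Without the 2 libraries farthest from the median of Usp2, BMAL1 aKO replicate 4 and Cre- replicate 2, r was 0.50 (exact permutation p = 0.208), so the relation rests in part on those libraries. Without Cre- replicate 3 it passed, with r = 0.83 (exact permutation adjusted p = 0.0417).

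Usp2 itself was at 85.9, 89.8, 93.8, 79.6 and 87.9 CPM across BMAL1 aKO replicates 1 to 5, against 88.7, 71.8, 99.5, 96.3 and 96.3 CPM in Cre- replicates 1 to 5. The groups overlapped widely, with a log2FC of -0.03 (limma, adjusted p = 0.839). Its lowest libraries, BMAL1 aKO replicate 4 and Cre- replicate 2, were also the lowest of their groups for Etnppl. Per3 was second, with r = 0.65 (exact permutation p = 0.0369, adjusted p = 0.553) and rho = 0.56 (exact permutation p = 0.0924). Without Cre- replicates 2 and 4, its farthest libraries, r was 0.46 (exact permutation p = 0.30). Dbp, the clock output gene with the fold change furthest from 0, had r = -0.06 with Chil1 (exact permutation p = 0.894) and r = 0.07 with Etnppl (exact permutation p = 0.865). With the mean of each Xist class removed as well, r of Etnppl was 0.70 with Usp2 (exact permutation p = 0.0556, adjusted p = 0.833) and 0.70 with Per3 (exact permutation p = 0.111, adjusted p = 0.833).

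**Figure D4:**
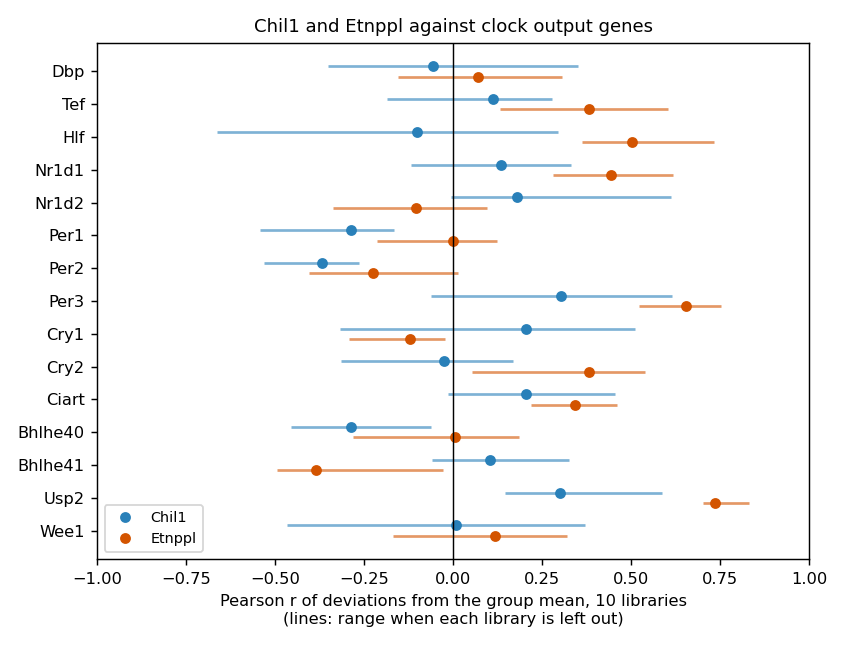
Pearson r of Chil1 (blue) and Etnppl (orange) with each of 15 clock output genes over 10 libraries, as deviations from the group mean, with lines for the range when each library is left out. Etnppl with Usp2 (0.74) and with Per3 (0.65) have the highest values, and r of Chil1 lies between -0.37 and 0.30.

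Chil1 and Etnppl were then compared with one another. Over the plain log2 levels of the 10 libraries r was 0.74, a value that both genes' lower level in BMAL1 aKO cortex helps to set. Of the deviations from the group mean, r was 0.50 (exact permutation p = 0.219) and rho was 0.38 (exact permutation p = 0.336), so a relation within groups was not shown. It rested on BMAL1 aKO replicate 3, which was 0.76 above its group mean for Chil1 and 0.93 for Etnppl on the log2 scale. Without that library r was 0.05 (exact permutation p = 0.897), and without it and BMAL1 aKO replicate 1, the farthest from the median of Chil1, r was -0.04 (exact permutation p = 0.931). Cre- replicate 4 went the other way, at -0.41 for Chil1 and 0.56 for Etnppl, and without it r was 0.78 (exact permutation p = 0.0486). With Xist class removed as well, r was 0.43 (exact permutation p = 0.396).

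**Figure D5:**
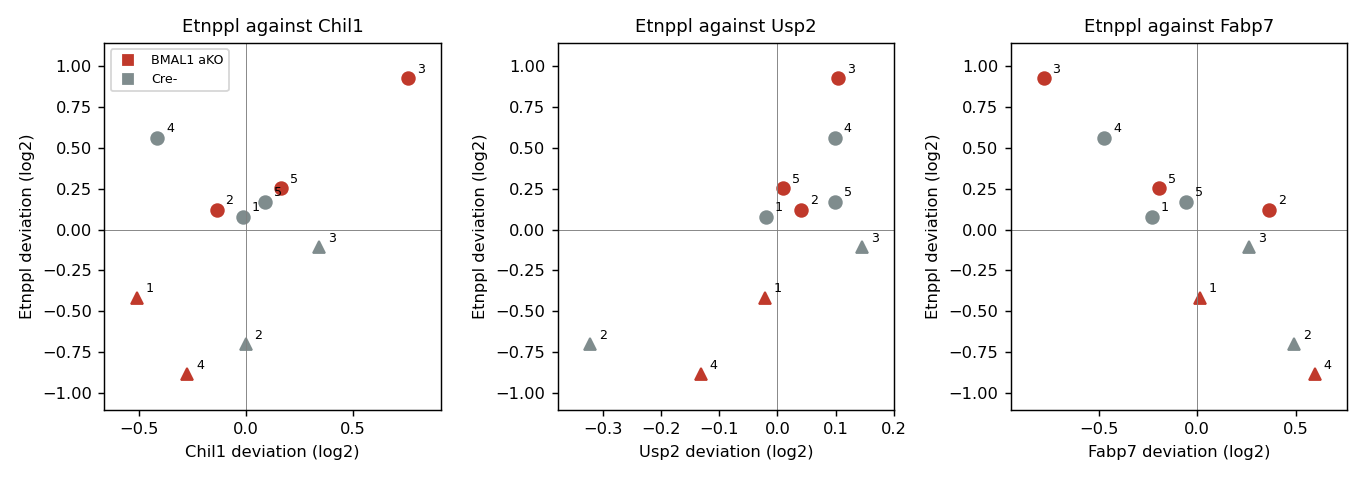
Deviation of Etnppl from its group mean against that of Chil1, Usp2 and Fabp7, on the log2(CPM + 0.5) scale, in each BMAL1 aKO (red) and Cre- (grey) library, numbered by replicate, with triangles for libraries with Xist above 100 CPM. BMAL1 aKO replicate 3, at 0.76 for Chil1 and 0.93 for Etnppl, and Cre- replicate 4, at -0.41 and 0.56, set the first relation, whose r is 0.50.

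The pair had different neighbours among the genes that varied as they did. By the r of deviations over 10 libraries, the genes most like Chil1 were Map10 (0.91), Cask (0.89), Dazl (0.83), Htr1f (0.82) and Edem1 (0.82), and Etnppl stood in place 503 of 12572. The genes most like Etnppl were Tmem108 (0.95), Slc36a4 (0.94), Tanc2 (0.92), Tet1 (0.92) and A130014A01Rik (0.92), and Chil1 stood in place 1756. By plain r, which holds the group difference, Chil1 was nearest to Cask (0.94), Htr1f (0.90), Stxbp5 (0.90), Edem1 (0.89) and Xlr3b (0.89). Etnppl was nearest to Slc36a4 (0.97), Tanc2 (0.96), Tet1 (0.96), Kirrel2 (0.95) and Ralgapb (0.93). These are the highest of 12572 values from the same 10 libraries, which share depth and quality between genes, and they carry no test. Slc36a4, a proton-coupled amino acid transporter, averaged 48.2 CPM in BMAL1 aKO and 55.1 CPM in Cre- cortex. Kirrel2, a cell adhesion protein, was at 2.80 CPM in BMAL1 aKO and 8.56 CPM in Cre- cortex.

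Other genes of each protein's pathway were read from the same fit, in which 0.334% of all genes passed and 16.8% had an unadjusted p under 0.05, so a count of 0 in a short list says nothing of its genes. Of 10 listed genes of the chitinase family, 4 were measured, and apart from Chil1 these were Chid1, Ctbs and Ovgp1, of which 0 of 3 passed the test in either direction, also at an unadjusted p under 0.05. Of 9 listed receptors and binding partners of chitinase-like proteins, 3 were measured (Il13ra1, Tmem219 and Lgals3bp). None passed. Tmem219, which encodes a co-receptor for YKL-40 in humans, had a log2FC of 0.31 ± 0.10 (SE, limma, adjusted p = 0.183), and Lgals3bp, a galectin-binding secreted protein, had one of 0.35 ± 0.12 (SE, limma, adjusted p = 0.188). Both had an unadjusted p under 0.05, or 2 of 3 beside 16.8% of all genes, and without sample weights none of the 3 did.

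For Etnppl, 13 of 15 listed genes that make or use ethanolamine phospholipids were measured, and 0 passed in either direction. At an unadjusted p under 0.05, 2 were higher and 2 lower, beside 16.8% of all genes. The higher were Pisd, the mitochondrial phosphatidylserine decarboxylase, with a log2FC of 0.23 ± 0.08 (SE, limma, adjusted p = 0.194), and the phosphatidylserine synthase Ptdss1, with 0.14 ± 0.06 (SE, limma, adjusted p = 0.287). The lower were Selenoi and Cept1, which encode the transferases of the last step of phosphatidylethanolamine synthesis from phosphoethanolamine, with -0.25 ± 0.08 (SE, limma, adjusted p = 0.185) and -0.16 ± 0.07 (SE, limma, adjusted p = 0.289). Without BMAL1 aKO replicate 3, Selenoi fell by 0.34 on the log2 scale (adjusted p = 0.0688, limma), beside 4.02% of all genes lower. Phykpl, the paralog of Etnppl that acts on phosphohydroxylysine, had a log2FC of -0.04 (limma, adjusted p = 0.874). The third listed enzyme of this group, Agxt2, was not analysed here.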

How the data were processed

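Cortical RNA of 10 libraries, numbered as replicates in the labels, was analysed as 5 BMAL1 aKO and 5 Cre- libraries, and p-values measure the spread between these libraries. The authors deposited CPM values per gene after aligning reads to GRCm38 with STAR 2.5.1a and counting them with featureCounts 1.4.6-p5. The paper's methods name TMM factors, a filter of 1 CPM in at least 4 samples and removal of ribosomal genes. The deposited CPM summed to 99.12 to 99.27% of the full CPM total, so no TMM factor is in them. Values were whole multiples of a step per library within 0.01 step. Reads are estimates that take 1 step as 1 read, which the filter on low values keeps from being checked, and they were not used for testing.

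Fits with limma 3.58.1 in R 4.3.3 took the 12573 genes that exceeded 1 CPM in 4 or more libraries, on log2(CPM + 0.5), which understates changes of low genes, with sample quality weights, a variance trend and Benjamini-Hochberg adjustment at 0.1. The fit was run on simulated counts without differences in library quality. These libraries do differ in quality, so that run does not vouch for the calls made here. Python 3.11.15, NumPy 2.4.6, pandas 2.3.3 and matplotlib 3.10.9 were used otherwise. Replicates of a group differed by more than sampling noise. The genes and lists were chosen with earlier results of these data known. Named genes were the pair, the clock lists, up to 4 genes per other list by smallest p with those past the threshold, and the 5 genes most like each of the pair. Alternatives covered pseudocount, scaling, filter, weights, threshold, a replicate block, Xist and each library left out.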

Additional observations from a re-analysis of the deposited data

Results flagged for a closer look

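In 3 of 50 groups of 5 libraries checked, 1 library stood apart from the other 4, and chance alone gives about 1 in 20. All 3 were in Cre- replicate 3, the library with the lowest quality weight and the highest sum of striatal genes. There Dbp was at 32.8 CPM, where the next Cre- library was at 19.5 CPM. Cry1, a Cryptochrome repressor of the clock, was at 17.8 CPM, where the next was at 15 CPM. Rora, a nuclear receptor that activates Bmal1, was at 85.4 CPM, where the next was at 144.9 CPM. Neither Chil1 nor Etnppl had such a library in either group.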

How the results depend on the processing

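Chil1 and Etnppl were lower in BMAL1 aKO under all alternatives run, and nothing is read from this, since the same contrast chose them. The log2 difference ran from -0.80 to -0.48 for Chil1 and from -1.43 to -0.98 for Etnppl when each library was left out. Within the high-Xist libraries, an alternative chosen after seeing the data, Chil1 differed by -1.17, and by -1.49 relative to astrocyte genes. Within the low-Xist libraries Chil1 differed by -0.24, and by -0.33 relative to astrocyte genes. With Xist as a covariate the weighted fit gave -0.25 for Chil1. The number of genes called (42) was 68 with TMM scaling, 65 with quantile normalization, 4 without sample weights, 22 with Xist as a covariate and 20 at a threshold of 0.05, and ran from 1 to 844 when each library was left out. The weights did not converge without Cre- replicate 1 or 5. Leaving out each library gave 0 to 3 clock output genes, 0 to 1 ethanolamine lipid genes and 0 chitinase family or partner genes called. It gave 0 to 1 relations of Etnppl with a clock output gene, 0 of Chil1, and r of 0.0535 to 0.780 between Chil1 and Etnppl. The cause of these shifts was not tested. Same-numbered libraries had r of -0.63 to 0.36 and the own number was best for 0 BMAL1 aKO and 1 Cre- libraries, so no pairing by number was seen. Other differences between libraries could hide a pairing from this comparison. With a replicate block 7 genes were called. The weighted fit gave -0.63 for Chil1 and -1.31 for Etnppl with the block, and -0.48 and -1.19 without it. Count models on whole reads were not run. No limit set by depth was tested.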

Other observations

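Fabp7, a fatty acid-binding protein of astrocytes and their precursors, was picked after its values were seen, along with Gfap and Mmp14. It was at 157.5, 201, 90.8, 237 and 137 CPM across BMAL1 aKO replicates 1 to 5, against 11.8, 19.9, 16.9, 9.94 and 13.4 CPM in Cre- replicates 1 to 5. BMAL1 aKO replicate 3, the highest of its group for Chil1 and Etnppl, was its lowest for Fabp7. The deviations of Etnppl and Fabp7 from their group means had r = -0.88 (exact permutation p = 0.00361, adjusted p = 0.0217 over 6 relations) and rho = -0.85 (exact permutation p = 0.00646, adjusted p = 0.0388) over 10 libraries. Without BMAL1 aKO replicates 3 and 4, the farthest from the median of Fabp7, r was -0.74 (exact permutation p = 0.0653). Leaving out 1 library at a time gave r from -0.96 to -0.80. The Cre- libraries with high Xist, replicates 2 and 3, were the highest of their group for Fabp7 and the lowest for Etnppl. With the mean of each Xist class removed as well, r was -0.88 (exact permutation p = 0.0208, adjusted p = 0.125 over 6 relations). Chil1 with Fabp7 had r = -0.38 (exact permutation p = 0.367), and whether the relation of Etnppl differs from it was not tested. Chil1 with Gfap, the intermediate filament of reactive astrocytes, had r = -0.76 (exact permutation p = 0.0357, adjusted p = 0.107) and -0.27 without BMAL1 aKO replicates 1 and 3. Etnppl had r = -0.56 with Gfap (exact permutation p = 0.190, adjusted p = 0.380), which was -0.16 without BMAL1 aKO replicates 1 and 3, and r = -0.01 with Mmp14 (exact permutation p = 0.988). Chil1 had r = -0.30 with Mmp14 (exact permutation p = 0.390, adjusted p = 0.468). Without Cre- replicates 2 and 3, the farthest from the median of Mmp14, r of Chil1 was -0.82 (exact permutation p = 0.0319, not adjusted). For Etnppl with Mmp14 it was then -0.34 (exact permutation p = 0.540).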
